A study of Homo sapiens with 6 samples.

Results

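The SRSF genes encode serine and arginine-rich splicing factors, and 10 of them are described here: SRSF1, SRSF2, SRSF3, SRSF4, SRSF5, SRSF6, SRSF7, SRSF9, SRSF10 and SRSF11. They were chosen by name from an exon annotation deposited with RNA sequencing of U-87 MG, a long-established line from a human glioma, and are 10 of its 13721 gene names. They hold 194 of its 382567 exon rows. The annotation stands for the series as a whole, which has 6 poly(A)-selected libraries. In 3 of them the cells had been exposed for 72 h to 10 uM EPZ015666, which blocks PRMT5, an enzyme that methylates arginine in proteins. In the other 3 the cells had 72 h of DMSO as the vehicle, at 10 ul in each 10 ml of medium. The rows hold exon positions in hg19 and 0 columns of values per library. No level, depth or replicate error can therefore be given, and EPZ015666 was not compared with DMSO. A feature called listed below is one present in these rows, whatever its abundance. Among 5 astroglial and mesenchymal genes looked up, VIM, NES, CD44 and FN1 had listed isoforms and GFAP had none. Without levels, this neither identifies the cells nor shows whether a gene was expressed.

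An SR protein binds RNA through an RNA recognition motif and contacts other splicing factors through its arginine and serine-rich tail, and arginine methylation is among the modifications of such RNA-binding proteins. Many SR genes limit their own output by unproductive splicing. The protein promotes the use of a poison exon, an extra exon that carries an early stop codon, or the splicing of introns behind the normal stop codon. By the usual rule, a stop codon more than 50 bases before the last exon junction marks an mRNA for nonsense-mediated decay. Keeping an intron in polyadenylated nuclear RNA is another way to withhold an mRNA from translation.

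In 8 of the 10 genes, the listed isoforms carried an internal exon with no coding base of the gene's main protein, either between its coding exons or after them. Such an exon was listed in 3331 of the 10568 genes that could be compared (31.5%). No cassette exon was found in any of the 10 genes, where a cassette exon is an internal exon of an isoform that lies inside an intron of another isoform of the same gene. None was found in any of the 12462 genes with introns either, so the background share was 0%. With no cassette exon listed, each of the 13 coding-free internal exons stood in every distinct isoform of its gene, and 5 of the 13 were in genes with 1 distinct isoform.

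Coding bases were taken from the main coding transcript of each gene in GENCODE v29. The isoforms were laid on that reference by intron lengths within a gene, since its build, GRCh38, differs from that of the file. Of 72 listed introns of the SRSF genes, 69 fell on a reference intron. Of 58 internal exons, 54 (93.1%) equalled a reference exon exactly. Both ends of 30 listed introns lay in stretches that a reference transcript keeps, so that their bases could be read, and 30 of the 30 began with GT and ended with AG.

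The sequences below show where the reading frame ended in each gene whose listed isoform stopped before the normal stop codon. They run from the acceptor to the first in-frame stop codon, which is in capitals. For SRSF10 they run from the first base after the coding part of exon 2. The letters come from GENCODE v29 transcripts (GRCh38), are given 5′ to 3′ on the strand of the gene, and the exon positions are those of the file in hg19. The exons are chr14:70236228-70236759 (plus strand) for SRSF5, chr20:42087793-42088060 (plus) for SRSF6, chr2:38976382-38976488 (minus) for SRSF7, chr1:24305143-24305307 (minus) for SRSF10 and chr1:70696778-70696886 (plus) for SRSF11.
SRSF5, exon 6: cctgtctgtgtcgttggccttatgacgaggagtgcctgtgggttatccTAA
SRSF6, exon 3: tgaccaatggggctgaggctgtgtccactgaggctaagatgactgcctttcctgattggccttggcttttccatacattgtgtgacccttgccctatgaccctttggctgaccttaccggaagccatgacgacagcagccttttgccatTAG
SRSF7, exon 4: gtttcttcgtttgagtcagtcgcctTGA
SRSF10, exon 2: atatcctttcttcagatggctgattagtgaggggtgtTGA
SRSF11, exon 4: ttcttttccctggttcagccTGA

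The frame was read from the start codon of the main coding transcript along the listed isoform with the most exons. The annotation is named for consensus coding isoforms and for DI, which is not spelled out. The sources used here do not say how a consensus isoform was made, or whether it is 1 transcript or joins exons of several. The codon counts and stop codons below therefore describe the listed exon order and may belong to no single mRNA. The frame reached a stop codon in 9 of the 10 genes. In 7 of these 9 the stop codon lay more than 50 bases before the last junction. Among all genes whose frame could be read this way, 2141 of 6208 (34.5%) met the same rule. Stop codons placed in this way were therefore common in this annotation, and whether the SRSF genes exceed that share was not tested. In 4 SRSF genes the frame ended at the normal stop codon, and among all genes read it did so in 3826 of 6208 (61.6%). In 5 it ended before it. The 7 genes above also include SRSF1 and SRSF2, whose stop codon was the normal one.

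**Figure D1:**
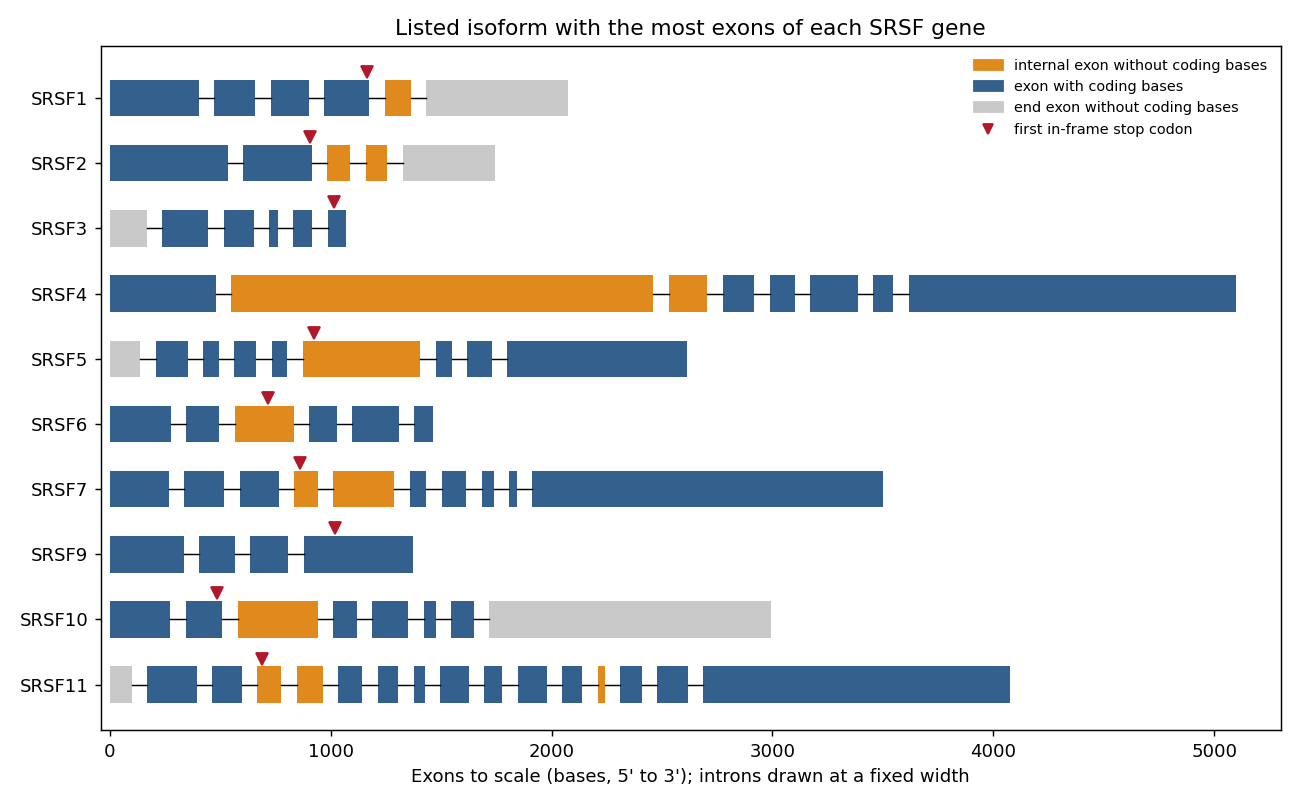
Exon order of the listed isoform with the most exons in each of the 10 SRSF genes, with exons to scale in bases, introns at a fixed width and triangles at the first in-frame stop codon. Orange exons hold no coding base of the main protein. They stand between coding exons in SRSF4, SRSF5, SRSF6, SRSF7, SRSF10 and SRSF11, after them in SRSF1 and SRSF2, and are absent in SRSF3 and SRSF9.

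Coding-free exons between coding exons were listed in 6 of the 10 SRSF genes, namely SRSF4, SRSF5, SRSF6, SRSF7, SRSF10 and SRSF11. Of the 10568 genes laid on the reference, 3157 (29.9%) had such an exon. Coding-free internal exons after the last coding exon were listed in 2 of the 10 SRSF genes, SRSF1 and SRSF2, and in 288 of the 10568 genes (2.73%). With the longest coding sequence of each gene as the coding transcript, SRSF1 had none and the count was 1 of 10. Together the SRSF genes had 10 exons of the one kind and 3 of the other. Of these 13 exons, 9 equalled an exon of a reference transcript marked for nonsense-mediated decay, and 0 equalled an exon of a reference coding transcript. Over all genes, 1113 of 5616 such exons (19.8%) equalled an exon of a decay transcript and 1419 (25.3%) one of a coding transcript. These shares were not limited to genes with a decay transcript in the reference, whereas every SRSF gene has such a transcript. The bases of the comparison are therefore unlike.

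SRSF6, an SR protein with a pair of RNA recognition motifs, had 1 listed isoform of 6 exons on chromosome 20 (42086505 to 42089238). Exon 3, of 268 bases, equalled an exon of the decay transcript SRSF6-202. The frame entered it and ended at a TAG starting at base 150, after 135 codons, against 344 codons in the coding transcript. The stop codon lay 450 bases before the last junction, with 3 junctions behind it. The exon sits in intron 2 of the coding transcript, which is its longest intron (1261 bases), and the splice that skips the exon was not listed. The isoform also ended early in another sense. Its final exon, of 84 bases, is an internal exon of the coding transcript, and the 104-base intron after it was not listed. With the 268-base exon left out, the frame met no stop codon in the 224 codons up to the end of the isoform.

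SRSF5 encodes an SR protein known for a role in insulin-responsive splicing. It was listed on chromosome 14 (70233835 to 70238721) with 3 isoforms, all with a coding-free exon of 532 bases as exon 6. The frame ended 138 codons from the start at a TAA starting at base 49 of that exon, against 272 codons in the coding transcript. The distance to the last junction was 666 bases. This exon equalled no single reference exon. It lies in intron 5 of the coding transcript, its longest (1215 bases). With the exon left out, the frame ran through 272 codons to the normal stop codon.

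SRSF7 binds RNA with a recognition motif and a zinc knuckle, and takes part in mRNA export as well as splicing. It was listed on chromosome 2 (38970742 to 38978636) with a pair of coding-free exons in a row, of 107 and 276 bases, separated by an intron of 66 bases (38976316 to 38976381). In the decay transcripts SRSF7-204 and SRSF7-205 the same stretch is 1 exon of 449 bases, of which 383 lie in the listed exons. The 276-base exon alone equalled an exon of SRSF7-203. The 66-base intron matched no reference intron, was the shortest listed intron of the SRSF genes, and began with GT and ended with AG. The frame ended at a TGA starting at base 26 of the 107-base exon, after 137 codons, against 238 in the coding transcript. There were 631 bases and 6 junctions up to the last exon. Both exons lie in intron 3 of the coding transcript (875 bases), the fourth longest of 7. Without them the frame ran to the normal stop codon at 238 codons.

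SRSF11, an SR-related protein with a tail of arginine and serine repeats, was listed on chromosome 1 (70671366 to 70717684) with 3 isoforms of 16 exons. It had 3 coding-free exons. Those of 109 and 117 bases are neighbours in intron 3 of the coding transcript (3712 bases), and both equalled exons of the decay transcript SRSF11-211. The remaining one, of 33 bases, is exon 13 of the isoform, in intron 10 of the coding transcript (3044 bases), and equalled an exon of 1 reference transcript of the processed type, which has no coding sequence marked. The frame ended at a TGA starting at base 21 of the 109-base exon, after 119 codons, against 484 in the coding transcript. It had 12 junctions behind it, more than in the other SRSF genes. With the 3 exons left out the frame ran through 484 codons to the normal stop codon.

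SRSF10, which acts as a splicing repressor when dephosphorylated, as after heat shock, was listed on chromosome 1 (24292936 to 24306953) with 4 isoforms. Its frame ended inside an extended coding exon, before the coding-free one. Exon 2 was listed with 165 bases, of which 105 are coding in the main coding transcript. The frame ran past the coding part into the extension and ended at a TGA starting at base 143, after 69 codons, against 262 in the coding transcript. The next exon, of 363 bases, is coding-free and equalled an exon of the decay transcript SRSF10-215, as did the 165-base exon. Leaving out the 363-base exon did not change the frame, which still ended after 69 codons. The exon lies in intron 2 of the coding transcript (3635 bases), its longest.

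SRSF4, a long SR protein with an extended tail, was listed on chromosome 1 (29474256 to 29508637) with 1 distinct isoform, given in 2 runs of rows. Its coding-free exons had 1910 and 175 bases. The 1910-base exon (29493241 to 29495150) ran from the acceptor of one exon to the donor of the next in the decay transcript SRSF4-206. It thus held 320 bases of that transcript's exons and 1590 bases of the intron between them. No reference transcript covers all of this stretch, so the frame could be read for 81 codons only, of 494 in the coding transcript, and was open up to there. The 175-base exon equalled an exon of SRSF4-206 and held stop codons in all 3 frames. Both exons lie in intron 1 of the coding transcript (21128 bases). Without them the frame ran through 494 codons to the normal stop codon.

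**Figure D2:**
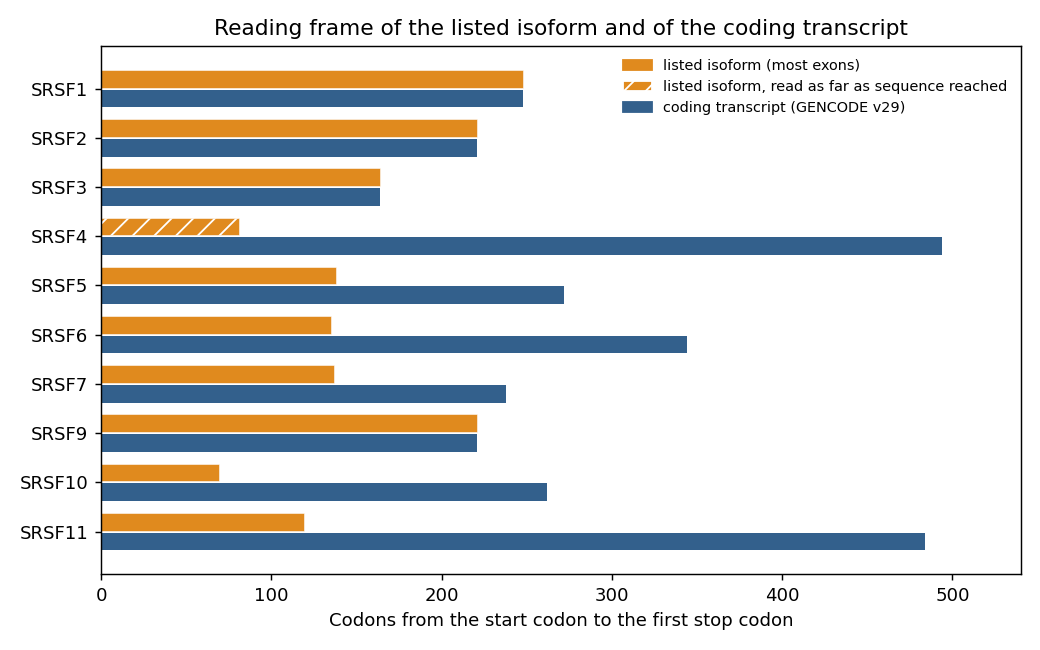
Codons between the start codon and the first stop codon in the listed isoform with the most exons (orange) and in the main GENCODE v29 coding transcript (blue) of each SRSF gene. The listed frames of SRSF5, SRSF6, SRSF7, SRSF10 and SRSF11 ended after 138, 135, 137, 69 and 119 codons, short of the blue bars, and that of SRSF4 (hatched) could be read for 81 codons only.

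In SRSF1 and SRSF2 the listed frame ran to the normal stop codon, and the coding-free exons lay behind it. SRSF1, the founding SR protein, was listed on chromosome 17 (56080722 to 56084707) with 248 codons up to the normal TAA in exon 4, as in the coding transcript. Behind it the isoforms had 2 further junctions, the coding-free exon of 119 bases (56082284 to 56082402) and the final exon. The stop codon lay 127 bases before the last junction. In the coding transcript SRSF1-201 the stop codon is in the final exon, and all 3 of its introns were also listed. The 4 introns of the decay transcript SRSF1-207 were listed too. SRSF2, an activator that binds exonic enhancers, was listed on chromosome 17 (74730228 to 74733413) with 1 isoform. Its frame had 221 codons to the normal stop codon in exon 2, followed by coding-free exons of 104 bases (74731854 to 74731957) and 98 bases (74731143 to 74731240). The stop codon lay 209 bases before the last junction, with 3 junctions behind it. All 4 introns of the decay transcript SRSF2-204 were listed. The 995-base intron of the coding transcript SRSF2-202, which runs from the exon with the stop codon over the 104-base exon to the acceptor of the 98-base one, was not.

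SRSF3 and SRSF9 were listed in their protein-coding form only. SRSF3, the smallest SR protein, had 1 isoform on chromosome 6 (36562091 to 36569818). Its frame ran through 164 codons to the normal TAG in the final exon, and all 5 introns of the coding transcript were listed. SRSF3 is among the best known genes with a poison exon, which is the 456-base exon of the decay transcript SRSF3-203. No listed exon overlapped it, nor the 98-base exon of SRSF3-204. SRSF9 had 2 distinct isoforms on chromosome 12 (120899472 to 120907558), both with 221 codons to the normal TGA in the final exon and with all 3 introns of the coding transcript. The 90-base exon of its decay transcript SRSF9-206 was overlapped by no listed exon. The 456-base exon of SRSF3 and the 90-base exon of SRSF9 are shown from acceptor to the in-frame stop codon in capitals, from GENCODE v29 transcripts, for comparison with the listed ones above.
SRSF3, exon of SRSF3-203: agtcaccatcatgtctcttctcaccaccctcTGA
SRSF9, exon of SRSF9-206: aaaactatTAG

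Counted from the reference side, the decay transcripts of the 10 genes held 21 internal exons free of coding bases, with an exon counted once per transcript. Of these 11 were listed exactly, 4 overlapped a listed exon and 6 were not listed. The 6 are the 456-base and 98-base exons of SRSF3, exons of 195 and 228 bases in SRSF4, 69 bases in SRSF7 and 90 bases in SRSF9. Of 22 decay transcripts, 7 had every intron listed, and of 39 coding transcripts 6 had. By intron, counted once per transcript, the shares were close, at 82 of 108 for decay and 143 of 195 for coding transcripts. The same shares over all genes were not computed. Of 28 reference transcripts named for a retained intron, 19 had every spliced intron listed, but many of these have a single intron.

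The splices of the main coding transcripts were listed incompletely. Of their 54 introns, 43 were listed. The unlisted ones included intron 2 of SRSF2, intron 1 of SRSF4, intron 5 of SRSF5, intron 2 of SRSF6, intron 3 of SRSF7, intron 2 of SRSF10 and introns 3 and 10 of SRSF11, each of which spans a listed coding-free exon. The others were intron 1 of SRSF5, intron 5 of SRSF6 and intron 1 of SRSF11. Every intron of the coding transcript was listed in 3 of the 10 SRSF genes (SRSF1, SRSF3 and SRSF9) and in 2823 of 10568 genes (26.7%). The count in the SRSF genes was near that background.

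The GC content of the coding-free exons ranged from 30.3 to 50% with a median of 45.5% (12 exons with full sequence), against 33.8 to 68.5% with a median of 45.8% in 38 internal exons made of coding bases only. Their lengths ranged from 33 to 1910 bases with a median of 119, against 36 to 215 bases with a median of 111. The coding-free exons longer than any of those coding exons were in SRSF4, SRSF5, SRSF6, SRSF7 and SRSF10. In 4 of the 13 the length was divisible by 3. Stop codons occurred in all 3 frames in 8 of the 12, and in 0 of the 38 coding exons, which by definition have at least 1 open frame. Neither count was made over the coding-free exons of all genes, so no trait of the SRSF exons can be read from them. In 4 of the 6 genes with such an exon between coding exons it lay in the longest intron of the coding transcript (SRSF4, SRSF5, SRSF6 and SRSF10). Of the 3157 genes with such an exon, 992 (31.4%) had it there, by the first intron of each gene that holds such an exon. Later introns were not looked at, so the share may be larger.

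Isoforms of an SRSF gene differed at their 3′ ends. The 10 genes had 20 distinct isoforms in 23 runs of rows, and 6 genes had more than 1. In 5 of these 6 the isoforms differed in the final exon only, which held for 2705 of 4791 genes (56.5%) with several spliced isoforms. SRSF10 was the exception. Final exons with different acceptors were listed in 4 of the 10 SRSF genes (SRSF1, SRSF5, SRSF10 and SRSF11), and in 2784 of 12462 genes (22.3%). An acceptor or donor shifted within overlapping exons was listed in the same 4 genes, and in 1038 of 12462 genes (8.33%). In the SRSF genes these were all acceptors of final exons, with 0 alternative donors. This is not particular to them, since with final and first exons left out 0 of 12462 genes had such a shift.

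In SRSF1 the final exon began at 56081362 or, 283 bases downstream, at 56081079, and both forms ended at 56080722. In SRSF5 the acceptors at 70237911 and 70237998 were 87 bases apart. The intron to the downstream one, of 175 bases, matched no reference intron and had GT and AG at its ends. In SRSF11 the acceptors at 70716291 and 70716294 were 3 bases apart, and the 3 bases between them read CAG. In SRSF10 the acceptors at 24298116 and 24298113 were also separated by the 3 bases CAG. Close acceptors of this kind are known as tandem acceptors and add or remove 1 codon where they lie in the reading frame. In the listed isoforms of SRSF10 and SRSF11 they lie behind the first in-frame stop codon. The isoforms of SRSF7 and SRSF9 shared their acceptor and differed in the last base. The final exon of SRSF7 had 1588 or 294 bases, and that of SRSF9 had 494 or 473.

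**Figure D3:**
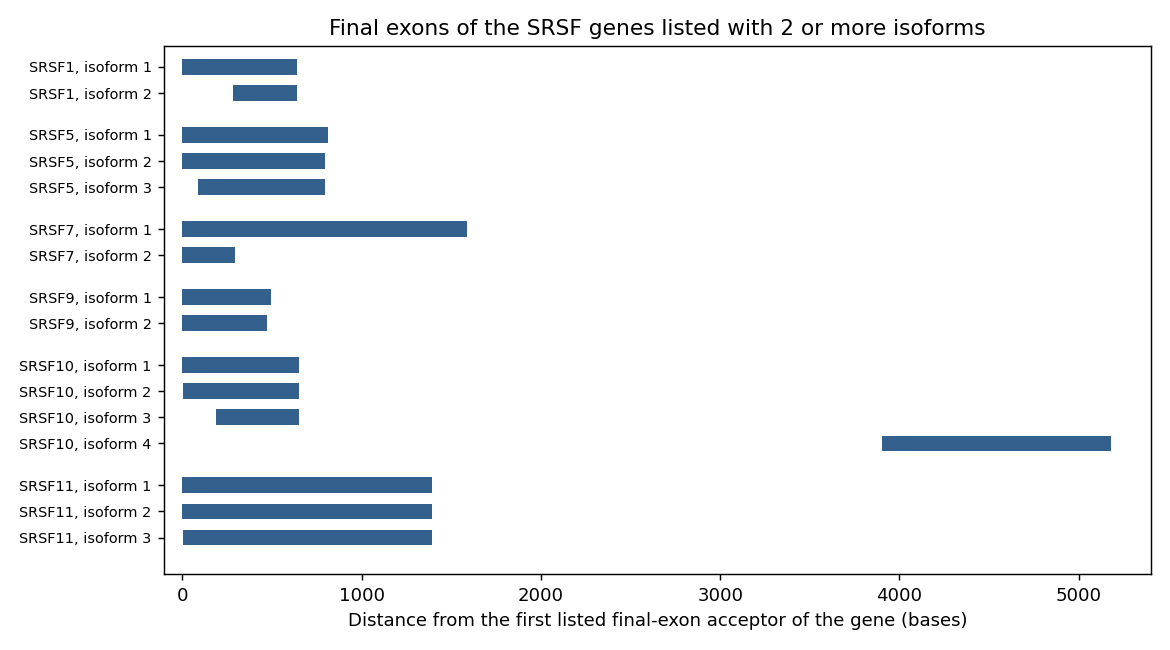
Final exons of the 6 SRSF genes with 2 or more distinct isoforms, drawn by distance in bases from the first listed acceptor of a final exon in the gene. Only SRSF10 had a final exon that ended before the acceptor of another, 3903 bases apart from first to last acceptor, while those of SRSF1, SRSF5, SRSF7, SRSF9 and SRSF11 overlapped.

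A retained intron was listed in 1 of the 10 SRSF genes, SRSF10, and in 521 of 12462 genes (4.18%). This count depends on keeping the later of neighbouring exon rows that overlap. With the earlier kept, no SRSF gene and 1 of 12462 genes (0.00802%) had a retained intron. Whether the SRSF10 acceptors that lie 3 bases apart stay under that choice was not examined. A retained intron here is a listed intron that is also covered by an exon whose ends equal the outer ends of the exons beside it. The SRSF10 intron has 133 bases (24297930 to 24298062), with GT and AG at its ends. It was spliced between the 54-base exon (24298063 to 24298116) and the next exon in isoforms 3 and 4, and it lay inside the 651-base final exon of isoform 1. The 648-base final exon of isoform 2 covered it too, starting 3 bases later. An end before the last acceptor of the longest isoform, which is an early end in the strict sense, was listed in 1 of the 10 SRSF genes, again SRSF10, and in 2015 of 12462 genes (16.2%). Its isoforms 1, 2 and 3 ended at 24297466, while isoform 4 went on through an intron of 3614 bases, matched by no reference intron, to a final exon of 1278 bases. Because the rows hold no values, a retained or detained intron that is not drawn as an exon could not be seen in any SRSF gene.

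**Figure D4:**
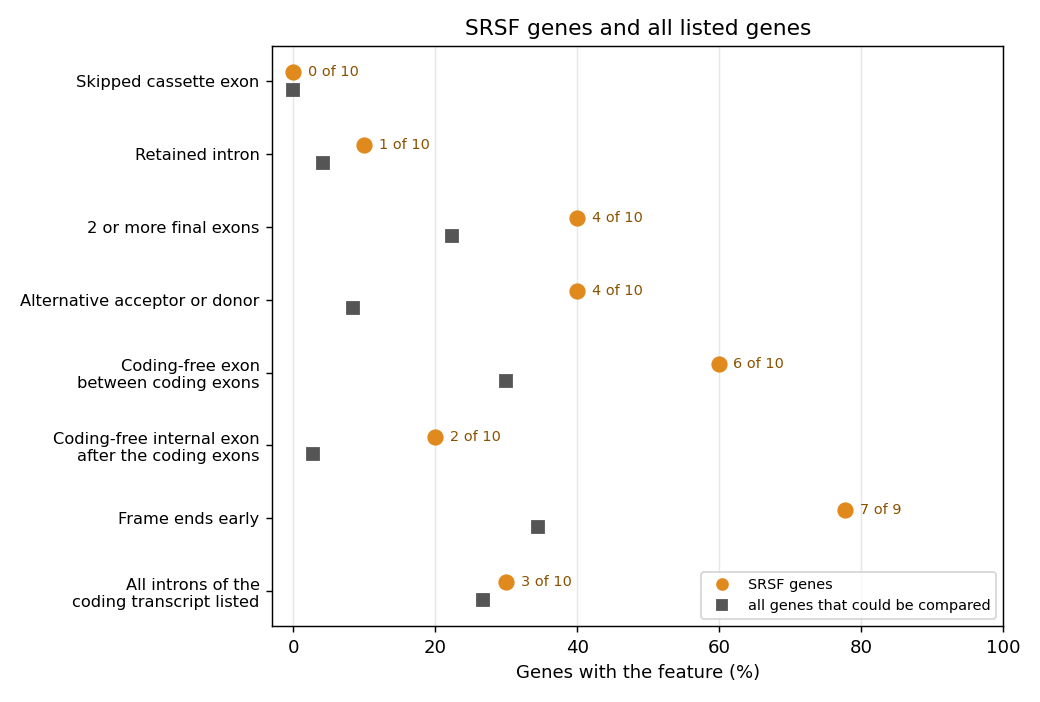
Share of genes with each listed feature, in percent, for the SRSF genes (orange circles, with their counts) and for all genes that could be compared (grey squares). The SRSF genes lie at 7 of 9 against 34.5% for a stop codon more than 50 bases before the last junction. This is drawn as a frame that ends early, although SRSF1 and SRSF2 reach the normal stop codon. They lie at 6 of 10 against 29.9% for a coding-free exon between coding exons, and at 3 of 10 against 26.7% for complete coding introns.

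Other genes known for unproductive splicing, or for a regulated cassette exon of their own, were read in the same way. All 24 of these genes were listed, with 0 cassette exons. A coding-free exon between coding exons was found in 13 of 24, against 29.9% of all genes. After the coding exons such an internal exon was found in 5 of 24, against 2.73%. In PTBP1, HNRNPA1 and HNRNPA2B1 the listed frame ran through the exon between coding exons and was longer than in the coding transcript. In 12 of the 18 genes where the frame could be read, the stop codon lay more than 50 bases before the last junction, against 34.5% of all genes read. The 12 included HNRNPA1, HNRNPA2B1 and HNRNPDL, whose frames were not shortened, at 372, 353 and 420 codons against 320, 341 and 420. Every intron of the coding transcript was listed in 6 of 24, against 26.7% of all genes. The partners of SR proteins TRA2A and TRA2B, which activate exons rich in purines, were among them. TRA2B had a 276-base coding-free exon (chromosome 3, 185649365 to 185649640) as exon 2, and its frame ended after 38 codons, against 288 in its coding transcript. TRA2A had coding-free exons of 90 bases (chromosome 7, 23570800 to 23570889) and 312 bases (23561740 to 23562051), and its frame ended after 12 codons, against 282. Of the 8 kinases that phosphorylate SR proteins, 3 had a coding-free exon between coding exons. The stop codon lay more than 50 bases before the last junction in 2 of 6. Over all genes these shares were 29.9% and 34.5%, so the counts in the kinases lay near the background. Of the kinases counted here, PRPF4B had the full 1007 codons of its coding transcript. The frame of SRPK2, with a coding-free exon of 93 bases, was longer than in its coding transcript, at 719 codons against 688. CLK1 and CLK4 belong to both lists.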

How the data were processed

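The members and lists were chosen with earlier results of these data known, and the reading frame and coding-free exon measures were added after the rows were seen. The file analysed is 1 exon annotation of 9 columns, deposited by the authors for the series of 6 libraries as a whole, whose 2 numeric columns are exon starts and ends. Per the submitters' processing notes, the tools were RSEM, DESeq (1.10.1), bedtools (2.20.1), STAR (2.4.1d) and Bowtie (1.0.1), and the builds GRCh37 and hg19, with no roles. The sources used here do not give how the authors chose exons. Expression tables were not analysed here, so depth is unknown and no test between groups was run.

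Rows whose end preceded their start (76) were dropped. Isoforms were runs of rows of 1 parent along the strand. Of neighbouring exons that overlapped, the later was kept. Repeated isoforms were counted once, and single-exon isoforms have no acceptor. Of 13721 genes, 12198 matched a GENCODE v29 protein-coding gene by name, chromosome and strand. They were aligned by equal intron lengths at 1 shift within the gene (at least 2 introns, 10568 genes). GRCh38 positions were not used. The coding transcript was one marked principal by APPRIS, otherwise one in CCDS, with the longest coding sequence. Sequence came from GENCODE transcripts, and frames that met uncovered bases (1941 genes), lacked the start codon (1300) or met no stop codon (1119) were left out of the frame shares. On planted isoforms, 80 of 80 events of each of 4 kinds were recovered. So were 249 of 249 annotated frames of decay transcripts with the start codon of the coding transcript. These frames were read on reference exons, so that check does not cover listed isoforms laid on the reference. All 10 SRSF genes are named, and other genes by lists. Python 3.11.15, numpy 2.4.6, scipy 1.17.1 and matplotlib 3.10.9 were used.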

Additional observations from a re-analysis of the deposited data

How the results depend on the processing

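No paired analysis was possible because exon positions carry no value for any library, so no library could be left out either. Cassette exons stayed at 0 under every alternative run. Retained introns were listed in 4.66% of genes when any covering exon sufficed, 10.8% among genes with several isoforms and 3.48% among genes with the intron numbers of the SRSF genes (3 to 16). They fell to 0.00802% (1 gene, SRSF10 no longer among them) when the earlier of overlapping exons was kept, so the SRSF10 call rests on that choice. For early ends the share was 16.2% in the strict sense, and for early ends and for 2 or more final exons alike it was 57.9% among genes with several isoforms and 20.5% with matched intron numbers. Alternative acceptors or donors were at 21.6% among genes with several isoforms and at 0% (0 of 10 SRSF genes) when final and first exons were left out. Alternatives for the frame and the coding-free exons were chosen after seeing the data. With matched intron numbers, stop codons more than 50 bases before the last junction were at 31.6%. Coding-free exons between coding exons were at 24.8% and after them at 2.42%, and complete coding introns at 30.2%. With at least 4 matched introns, coding-free exons between coding exons were at 32.2%. With the longest coding sequence as the coding transcript they were at 28.3%, complete coding introns were at 24.7% (2 of 10 SRSF genes), and 1 of 10 SRSF genes had a coding-free internal exon after the coding exons. The 7 SRSF genes with a stop codon so placed and the 6 with a coding-free exon between coding exons stayed at these numbers under each of these alternatives. Matching exon lengths within 1 base left 93.1% of internal exons matched. The reference sequence may differ from that of these cells, and presence in the rows says nothing of abundance.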

Other observations

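Among the other genes known for unproductive splicing, RBM39, an RNA-binding protein that takes part in 3′ splice site choice, had the most coding-free exons between coding exons (6), and its frame ended after 40 codons, against 530 in its coding transcript. U2AF1, the small subunit of the factor that binds the 3′ splice site, had 1 of 67 bases (chromosome 21, 44521476 to 44521542), and its frame ended after 75 codons, against 240. HNRNPH1, which binds runs of G, had 1 of 134 bases (chromosome 5, 179048844 to 179048977), and its frame ended after 40 codons, against 449. In PTBP1, a repressor of exons, with a coding-free exon of 78 bases (chromosome 19, 805492 to 805569), the listed frame was the longer one, at 557 codons against 531. In HNRNPA2B1, with an exon of 36 bases (chromosome 7, 26237451 to 26237486), it was also longer, at 353 codons against 341. The frame ran through these exons, which are coding-free only by the main coding transcript and did not act as early stops here. HNRNPK, SNRNP70 and CLK1 were listed with the frame of the coding transcript, at 464, 437 and 484 codons. These examples were chosen after their values were seen.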
